A study of Homo sapiens with 9 samples.

Results

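AP-1 is a pair of basic leucine zipper (bZIP) proteins, usually a JUN protein with a FOS protein, that binds DNA and activates or represses nearby genes. The 9 genes described here are JUN, JUNB and JUND, which encode the JUN proteins, FOS, FOSB, FOSL1 and FOSL2, which encode the FOS proteins, and ATF3 and MAFF, which encode bZIP proteins of related families. They were chosen by symbol, with no threshold on any measured value, but with earlier results of these data known. All 9 were found among the 18970 genes of the count tables. Several of these genes are immediate-early genes, whose transcription answers growth factors and stress within minutes and whose transcripts are short-lived. JUN proteins can pair with each other as well as with FOS proteins, whereas FOS proteins need a partner.

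The cells were cranial neural crest cells (CNCCs) at passage 4. They came from H9 cells, an established line of human embryonic stem cells, in which both copies of SOX9 carried an FKBP12-F36V, mNeonGreen and V5 tag at the carboxy terminus. SOX9 is a transcription factor of neural crest and cartilage, and dTAGV-1 marks the tagged protein for degradation. The cells received 500 nM dTAGV-1 for 0h, 3h or 24h, and the labels put the relative SOX9 level of the 0h samples at 100% and that of all later samples at 0%. At every time there was 1 library from each of 3 cultures, S9CC13_R6, S9CC47_R5 and S9CC47_R6, whose names join the clone (S9CC13 or S9CC47) with the differentiation batch (R5 or R6). No library of untagged cells was analysed here. For 0h the labels give the dTAGV-1 concentration with a time of 0h, while the protocol names DMSO, the solvent, as the control. All groups grew in medium with bFGF and EGF (20 ng/ml each), 3 uM CHIR-99021 and 50 pg/ml BMP2, so that both growth factors were present at every time. The base analogue 4-thiouridine (4sU, 100 uM) was given to all 9 samples for the last 2 h, from 1 h after dTAGV-1 for 3h samples and from 22 h for 24h samples.

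In SLAM-seq, 4sU in newly made RNA is alkylated and then read as a T>C conversion, so T>C reads follow RNA made during labelling and total reads follow all RNA of a gene. The libraries held 16955633 to 28782678 total reads and 3130673 to 5475800 T>C reads, so that 15.9% to 21.3% carried a conversion, and S9CC13_R6 at 3h had the lowest share. CNCC markers were present, with 12 of 13 at 1 CPM (counts scaled to equal library totals) or more in every library, while SOX10 had 0 to 3 counts. Of 6 pluripotency markers, POU5F1 had at most 1 count and NANOG at most 4, but LIN28A reached 241 to 374 CPM and DPPA4 34.2 to 44.6 CPM. Of 6 neural markers, SOX1 had none and PAX6 at most 4 counts, and TUBB3 reached 54.6 to 89.3 CPM. The summed CPM of the CNCC markers, SOX9 and MSX1 among them, was 4352 to 4415 at 0h, 5202 to 5445 at 3h and 6481 to 6865 at 24h, that of the pluripotency markers 350.1 to 414, 304 to 349 and 281 to 306, and that of the neural markers 75.8 to 79.2, 75.9 to 89.6 and 55.5 to 75.1. The part of these markers in the AP-1 results was not tested. In such bulk samples, fewer cells that express a gene and less RNA per cell cannot be told apart.

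SOX9 itself is the targeted gene, but the tag acts on its protein, so its RNA does not check the depletion. With S9CC13_R6 first, S9CC47_R5 second and S9CC47_R6 last, SOX9 had 9493, 9961 and 9914 normalized T>C reads before depletion. It had 18399, 15047 and 17069 after 3h and 23542, 19883 and 20923 after 24h. Every library at 3h and at 24h was thus above every library at 0h.

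The JUN genes and FOS are given here with the reference sequence around their starts, because the JUN genes are those whose RNA rose and FOS is their best known partner. The windows run from 250 bases before to 50 bases after a start of the gene in RefSeq on GRCh38.p14, in the direction of transcription. Such windows were matched for 8 of the 9 genes. The 4 windows are chr1:58783998-58784297 on the minus strand for JUN, chr19:12791236-12791535 on the plus strand for JUNB, chr19:18281573-18281872 on the minus strand for JUND, and chr14:75278578-75278877 on the plus strand for FOS. Capitals mark matches to 7 motifs, searched on both strands, none of which overlapped another in these windows. The motifs were TGACGTCA (the cyclic AMP response element, CRE), TGACTCA (the AP-1 site), TGACATCA (the JUN type of site), CCAAT (the CCAAT box), TATAAA (the TATA box), AACAAT (a core that SOX proteins bind) and the CArG box bound by SRF.
JUN: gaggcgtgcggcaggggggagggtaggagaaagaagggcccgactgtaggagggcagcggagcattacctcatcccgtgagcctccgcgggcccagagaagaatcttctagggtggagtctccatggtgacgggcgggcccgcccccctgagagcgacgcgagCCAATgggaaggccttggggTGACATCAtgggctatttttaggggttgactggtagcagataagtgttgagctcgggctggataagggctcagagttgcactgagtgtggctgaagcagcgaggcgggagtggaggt
JUNB: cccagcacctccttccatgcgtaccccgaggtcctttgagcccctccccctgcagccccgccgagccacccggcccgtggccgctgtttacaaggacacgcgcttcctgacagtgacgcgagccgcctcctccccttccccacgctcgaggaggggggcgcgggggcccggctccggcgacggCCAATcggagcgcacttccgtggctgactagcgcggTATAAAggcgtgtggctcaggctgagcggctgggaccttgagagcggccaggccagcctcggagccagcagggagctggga
JUND: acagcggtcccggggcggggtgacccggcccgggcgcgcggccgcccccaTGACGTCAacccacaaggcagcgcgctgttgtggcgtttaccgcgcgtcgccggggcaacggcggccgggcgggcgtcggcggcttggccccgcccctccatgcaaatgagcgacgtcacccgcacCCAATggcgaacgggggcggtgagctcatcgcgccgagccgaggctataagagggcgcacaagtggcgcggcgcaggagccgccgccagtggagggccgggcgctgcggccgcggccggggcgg
FOS: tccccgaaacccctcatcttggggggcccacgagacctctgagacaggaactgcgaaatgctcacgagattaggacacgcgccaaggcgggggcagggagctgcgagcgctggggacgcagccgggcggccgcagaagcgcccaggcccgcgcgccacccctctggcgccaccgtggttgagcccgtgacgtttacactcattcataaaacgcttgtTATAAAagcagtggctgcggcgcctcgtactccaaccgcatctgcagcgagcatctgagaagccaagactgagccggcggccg

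The JUN window held TGACATCA with its first base at -67 from the start and CCAAT at -87. The JUNB window held CCAAT at -67 and TATAAA at -31, and the JUND window TGACGTCA at -200 and CCAAT at -74. In the FOS window the one match was TATAAA, at -33. Among the windows not printed, MAFF held TGACGTCA at -54, ATF3 TGACATCA at -123 and FOSL2 TGACTCA beginning 4 bases after the start. None of the 8 windows matched AACAAT or the CArG box. Sites more than 250 bases before the start were not searched, nor were other starts that a gene may have. A promoter may therefore hold either motif outside its window. Of 35116 promoter windows of the same length, 34.6% held CCAAT, 11.5% TATAAA, 10.1% AACAAT, 4.95% the AP-1 site, 2.61% the JUN type of site, 1.85% the CRE and 1.29% the CArG box. All 3 JUN gene windows thus held CCAAT, as did those of ATF3 and MAFF. These are matches of letters, not measured binding.

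Level differed widely among the 9 genes. Libraries of this kind read about 1 fragment per transcript from its 3′ end, so the CPM of total reads were compared between genes without dividing by length. At 0h JUND stood highest, at 45.1 ± 5.07 CPM (SD, n = 3 cultures here and below). MAFF followed at 9.31 ± 1.44 CPM and JUN at 9.11 ± 0.653 CPM, and these neighbours in the order overlapped between cultures. FOSL2 reached 3.71 ± 0.570 CPM. JUNB, at 2.49 ± 0.780 CPM, and ATF3, at 2.47 ± 0.514 CPM, overlapped each other. FOSL1 came to 1.21 ± 0.554 CPM, and FOS (0.374 ± 0.125 CPM) and FOSB (0.265 ± 0.264 CPM) stood lowest and overlapped. The other neighbours in the order did not overlap.

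After depletion JUN moved up the order. At 24h JUND was at 77.6 ± 13.3 CPM and JUN at 30.3 ± 2.93 CPM, with MAFF at 12.4 ± 1.75 CPM, and no pair of these overlapped. In T>C reads, JUN at 24h (94.0 ± 10.2 CPM of T>C reads) overlapped JUND (113 ± 15.8 CPM of T>C reads), although JUND was above JUN in each of the 3 cultures. At 0h JUND (70.0 ± 16.9 CPM of T>C reads) and JUN (27.5 ± 2.81 CPM of T>C reads) had not overlapped.

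The 3 JUN genes rose after SOX9 depletion, and no other AP-1 gene passed the test. Of the 9 genes, 8 reached the minimum for testing T>C reads (1 CPM in 3 or more samples), FOSB being left out, and 7 that for total reads, FOS and FOSB being left out. In T>C reads, 2 of the 8 rose at 3h (JUN and JUNB), where 1.79% of all genes tested were called and 1.01% were called higher. At 24h 3 of the 8 rose (JUN, JUNB and JUND), where 4.98% of all genes were called and 2.38% were called higher. Between 3h and 24h JUN alone among the 8 was higher at 24h, where 1.14% of all genes were called and 0.54% were called higher at 24h. In total reads, 2 of the 7 rose at 3h (JUN and JUND), against 1.89% of all genes called and 1.11% called higher. At 24h 3 of the 7 rose, against 15% called and 7.11% called higher. Between 3h and 24h JUN alone among the 7 was higher at 24h, against 5.39% called and 2.51% called higher. Calls were made by DESeq2 over all genes tested at a Benjamini-Hochberg adjusted p under 0.1. The median log2 fold change of T>C reads over the 8 genes tested was 0.42 at 3h and 0.16 at 24h, beside -0.011 and 0.0015 over all genes.

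**Figure D1:**
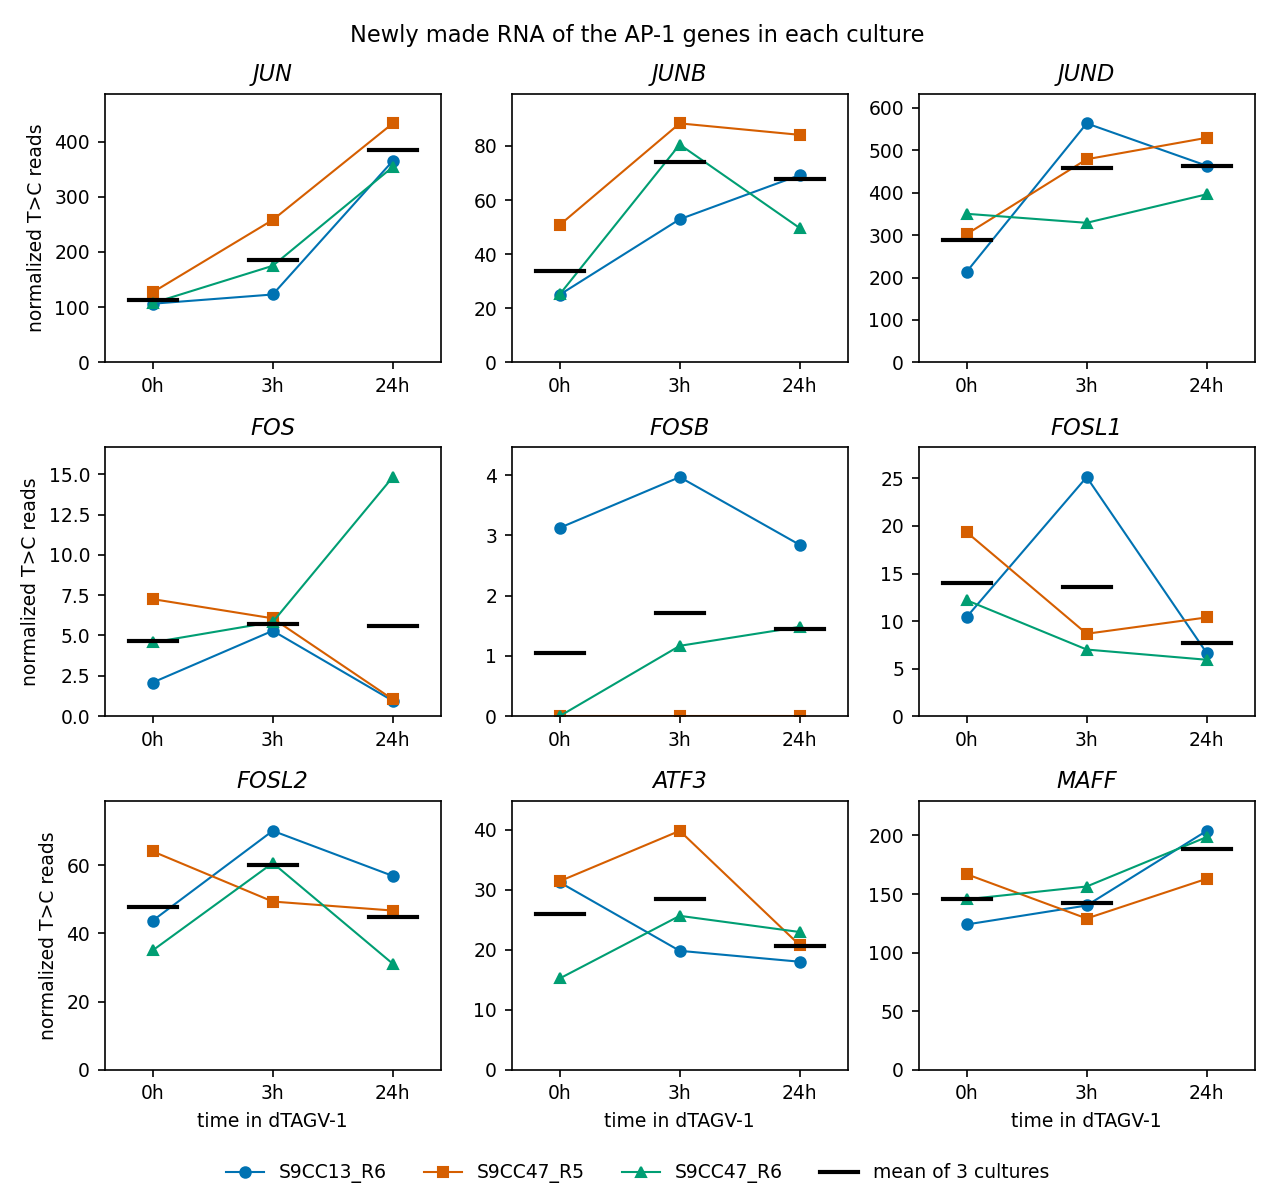
Normalized T>C reads (reads of newly made RNA, vertical axes from 0, a scale per gene) of the 9 AP-1 genes at 0h, 3h and 24h of dTAGV-1. Each line is a culture and each black bar the mean of 3 cultures. JUN at 24h lies between 354 and 433 in all cultures against 106 to 127 at 0h. From 0h to 24h the lines of FOS, FOSB, FOSL2, ATF3 and MAFF do not all go the same way.

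JUN (ENSG00000177606, chromosome 1, 58776845 to 58784048, minus strand), a gene of 1 exon that encodes the founding JUN protein, rose at both times. Its normalized T>C reads at 0h were 106 in S9CC13_R6, 127 in S9CC47_R5 and 107 in S9CC47_R6. With the cultures in that order they were 123, 258 and 175 at 3h and reached 365, 433 and 354 at 24h. Each culture rose from 0h to 3h and again to 24h, and the 24h libraries overlapped neither earlier group, whereas S9CC13_R6 at 3h lay below S9CC47_R5 at 0h. By DESeq2, T>C reads of JUN were up by 0.71 on the log2 scale at 3h (SE 0.19, adjusted p = 0.0129). The rise was 1.68 at 24h (SE 0.19, adjusted p = 4.72e-16), a 3.2-fold rise with a 95% interval of 2.48 to 4.13. From 3h to 24h JUN rose by 0.96 (SE 0.20, adjusted p = 0.000378).

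The total reads of JUN gave the same order with no overlap at any step. They were 186, 214 and 198 normalized reads at 0h, 294, 445 and 330 at 3h, and 629, 722 and 585 at 24h, with the cultures in the order above. The log2 fold change of 0.83 at 3h passed the test (SE 0.14, adjusted p = 1.8e-06), as did that of 1.68 at 24h (SE 0.14, adjusted p = 3.33e-28). Leaving out any culture kept the call at 24h in both kinds of read and at 3h in total reads. At 3h in T>C reads the call was lost without S9CC13_R6 (log2 fold change 0.88, adjusted p = 0.263), without S9CC47_R5 (0.49, adjusted p = 0.999) and without S9CC47_R6 (0.66, adjusted p = 0.622). From 3h to 24h it was lost without S9CC13_R6 in T>C reads (0.96, adjusted p = 1) and in total reads (0.90, adjusted p = 0.313). Refits without a culture, here and below, leave few degrees of freedom. A lost call therefore does not by itself show that a change rests on the culture left out.

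JUNB (ENSG00000171223, chromosome 19, 12791486 to 12793315, plus strand), also a gene of 1 exon, encodes a JUN protein that can dampen the action of JUN. Its normalized T>C reads, always with S9CC13_R6 first, S9CC47_R5 second and S9CC47_R6 last, were 25.0, 50.8 and 25.1 at 0h. They were 52.9, 88.4 and 80.5 at 3h and 69.2, 84.1 and 49.6 at 24h. All 3 cultures were higher at 3h than at 0h, without overlap, and all 3 were higher at 24h than at 0h, where S9CC47_R6 at 24h lay below S9CC47_R5 at 0h. The rise in T>C reads was 1.23 on the log2 scale at 3h (SE 0.32, adjusted p = 0.0139). At 24h it was 0.97 (SE 0.34, adjusted p = 0.0813). Without the filter on low counts the adjusted p at 24h was 0.112. Both calls in T>C reads were lost whichever culture was left out, with log2 fold changes of 0.92 to 1.41 at 3h and 0.59 to 1.13 at 24h.

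In total reads JUNB had 36.3, 70.6 and 56.6 normalized reads at 0h, 65.4, 111 and 112 at 3h, and 115, 123 and 78.1 at 24h. The 3h group overlapped 0h and the 24h group did not. The log2 fold change of 0.86 at 3h missed the threshold (SE 0.29, adjusted p = 0.138), and that of 0.88 at 24h passed it (SE 0.30, adjusted p = 0.0362). The call at 24h was lost without S9CC13_R6 (adjusted p = 1) and without S9CC47_R5 (adjusted p = 0.431). The whole of JUNB lies within the span of HOOK2, a gene on the opposite strand, and whether the counting used the strand is not given in the sources used here. In total reads HOOK2 stood above JUNB, with a mean of 133 normalized reads beside 85.4. In T>C reads it stood below, with a mean of 19.2 normalized reads against 58.4 for JUNB. The log2 fold changes of HOOK2 in T>C reads were 0.07 at 3h (SE 0.55, adjusted p = 0.998) against -0.24 at 24h (SE 0.57, adjusted p = 0.93). Its total reads gave -0.19 for 3h, then -0.39 for 24h, with no call. How far HOOK2 reads enter the counts or the T>C share of JUNB was not tested.

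JUND (ENSG00000130522, chromosome 19, 18279694 to 18281622, minus strand), a gene of 1 exon whose protein is present in most resting cells, had the most reads of the 9. Its normalized total reads were 880.3, 955 and 1131 at 0h, 2102, 1625 and 1170 at 3h, and 1648, 1956 and 1355 at 24h, cultures ordered as before. Both later groups were above 0h without overlap, but S9CC47_R6 at 3h was only just above its own 0h value. JUND rose by 0.59 on the log2 scale at 3h (SE 0.12, adjusted p = 9.62e-05), then stood 0.90 above 0h at 24h (SE 0.12, adjusted p = 2.06e-11), and both calls were kept whichever culture was left out. At 3h the value without S9CC47_R6 was 1.02 (adjusted p = 1.05e-06), and without S9CC13_R6 it was 0.49 (adjusted p = 0.063). From 3h to 24h the log2 fold change of 0.31 did not pass (SE 0.13, adjusted p = 0.185), but it did without S9CC13_R6 (0.68, adjusted p = 0.0595).

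Newly made JUND RNA differed more between cultures. Its normalized T>C reads were 214, 302 and 350.4 at 0h, 564, 479 and 329 at 3h, and 464, 530 and 396 at 24h. From 0h to 3h the log2 change was 1.40 in S9CC13_R6 and 0.66 in S9CC47_R5 but -0.09 in S9CC47_R6. At 3h the log2 fold change of 0.54 (SE 0.17) missed the threshold in DESeq2 (adjusted p = 0.103) and passed it in edgeR (adjusted p = 0.0216), with TMM scaling in DESeq2 (adjusted p = 0.0966) and without S9CC47_R6 (1.03, adjusted p = 0.00127). By 24h the value was 0.80 (SE 0.18, adjusted p = 0.000592), with no overlap between 24h and 0h. That call was lost without S9CC13_R6 (0.83, adjusted p = 0.49) and without S9CC47_R5 (0.87, adjusted p = 0.657).

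**Figure D2:**
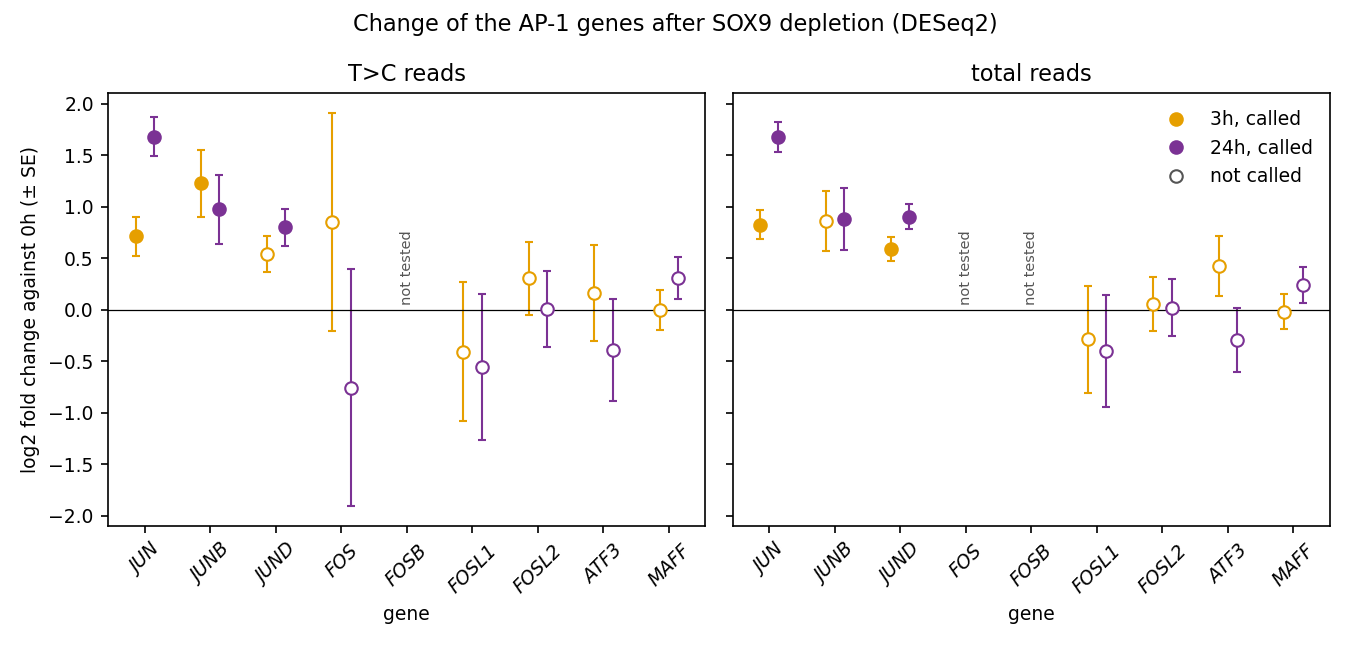
Log2 fold change against 0h (vertical axis, DESeq2, bars are ± SE) of the AP-1 genes in T>C reads (left) and total reads (right) at 3h and 24h. Filled points passed an adjusted p under 0.1, open points did not, and genes below the minimum for testing are marked. The filled points belong to JUN, JUNB and JUND, from 0.59 to 1.68, and the open points of FOS and FOSL1 have the longest bars.

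The FOS genes gave no call, and for FOS and FOSB the counts were too few for a firm statement. FOS (ENSG00000170345, chromosome 14, 75278826 to 75282230, plus strand), the classic immediate-early gene, had raw T>C counts of 2, 6 and 6 at 0h, 4, 7 and 5 at 3h, and 1, 1 and 20 at 24h, cultures ordered as before. S9CC47_R6 at 24h thus stood apart from the other cultures, and it held 26 total reads of FOS against 5 and 4 in the others. The log2 fold change in T>C reads was 0.85 at 3h (SE 1.06, adjusted p = 0.991), against -0.76 at 24h (SE 1.15, adjusted p = 0.869). The sign at 24h turned without the surrogate variable (0.26, adjusted p = 0.956) and without S9CC47_R5 (0.24, adjusted p = 0.993), and the mean of the normalized T>C reads of FOS was 4.64 at 0h and 5.60 at 24h. The 95% interval of the fold ran from 0.428 to 7.58 at 3h, and at 24h it ran from 0.124 to 2.83, so the fit left changes within these bounds open. Both the few counts and the spread between cultures enter these intervals. FOSB (ENSG00000125740, chromosome 19, 45467995 to 45475179, plus strand), its close relative, had 1 to 12 total reads and 0 to 3 T>C reads. All of FOSB overlaps ERCC1, a gene on the opposite strand with a mean of 953 normalized total reads, and whether the counting kept reads of these genes apart by strand is not given in the sources used here. It had no T>C read in the 3 libraries of S9CC47_R5 and in S9CC47_R6 at 0h, where a count of 0 allows up to 3 reads, or 0.555 to 0.879 CPM of T>C reads.

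FOSL1 and FOSL2 encode FRA1 and FRA2, FOS proteins without the strong activating region of FOS. FOSL1 (ENSG00000175592, chromosome 11, 65892049 to 65900573, minus strand) had normalized T>C reads of 10.4, 19.3 and 12.2 at 0h, 25.1, 8.66 and 7.00 at 3h, and 6.64, 10.4 and 5.93 at 24h. Each culture was lower at 24h than at 0h, but the log2 fold change of -0.55 did not pass the test (SE 0.71, adjusted p = 0.832), and at 3h the value was -0.40 (SE 0.68, adjusted p = 0.998). FOSL2 (ENSG00000075426, chromosome 2, 28392448 to 28417317, plus strand) was the FOS gene with the most reads, with normalized T>C reads of 43.8, 64.1 and 35.0 at 0h, 70.1, 49.4 and 60.7 at 3h, and 56.9, 46.7 and 31.1 at 24h. All 3 groups of FOSL2 overlapped. Its log2 fold changes were 0.30 at 3h (SE 0.35, adjusted p = 0.991) against 0.01 at 24h (SE 0.37, adjusted p = 0.998), and the 95% interval of the fold at 24h was 0.607 to 1.66, which excludes a rise as large as the one JUN showed.

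ATF3 (ENSG00000162772, chromosome 1, 212565334 to 212620777, plus strand), a bZIP protein made under stress that often represses, had normalized T>C reads of 31.3, 31.4 and 15.2 at 0h, 19.8, 39.8 and 25.7 at 3h, and 18.0, 20.8 and 23.0 at 24h. S9CC13_R6 went down at 3h while the other 2 cultures went up, and at 24h S9CC47_R6 alone was above its 0h value. The log2 fold changes were 0.17 at 3h (SE 0.46, adjusted p = 0.998) against -0.39 at 24h (SE 0.49, adjusted p = 0.83). In total reads ATF3 was lower at 24h than at 3h in all 3 cultures, with a log2 fold change of -0.71 that did not pass (SE 0.33, adjusted p = 0.263).

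MAFF (ENSG00000185022, chromosome 22, 38200767 to 38216507, plus strand) encodes a small MAF protein, which binds DNA but has no activating region of its own. Its normalized T>C reads were 124, 167 and 145 at 0h, 140, 129 and 156 at 3h, and 204, 163 and 199 at 24h. S9CC13_R6 and S9CC47_R6 were above their 0h values at 24h and S9CC47_R5 was not. The log2 fold change was -0.0016 at 3h (SE 0.20, adjusted p = 1) against 0.31 at 24h (SE 0.20, adjusted p = 0.566). The intervals of the fold, 0.764 to 1.31 at 3h and 0.941 to 1.63 at 24h, were narrow beside those of FOS. The last exon of MAFF, 38214420 to 38216507, overlaps PLA2G6 on the opposite strand up to 38214778, so that its 3′ end lies outside the overlap. PLA2G6 had a mean of 9.79 normalized T>C reads against 159 for MAFF.

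The members were then compared in the size of their change, culture by culture, over the 6 that had at least 10 T>C reads in every library (JUN, JUNB, JUND, FOSL2, ATF3 and MAFF). Changes were taken within each culture as differences of log2(normalized reads + 1), and the 15 pairs share the same libraries. At 24h in T>C reads, 10 of the 15 pairs differed in the same direction in all 3 cultures, and at 3h 4 of 15. In total reads the numbers were 10 and 7. With 3 cultures the smallest two-sided p of an exact sign-flip test is 0.25, so no pair could pass. Equal signs in all 3 cultures arise by chance with that probability, and the 4 of 15 at 3h is close to it.

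JUN changed more at 24h than each of the other 5 in all 3 cultures, in both kinds of read. Its T>C change was above that of JUND by 1.05 on the log2 scale on average (0.66 to 1.54 over cultures, exact sign-flip p = 0.25) and above that of JUNB by 0.71 (0.34 to 1.05, exact sign-flip p = 0.25). At 3h the order was not settled. JUN minus JUND in T>C reads was -1.19 in the lowest culture and 0.79 in the highest, with a mean of -0.01 (exact sign-flip p = 1).

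Among the 15 pairs in T>C reads at 3h, JUNB and MAFF had the largest mean difference, with JUNB ahead by 1.19 (0.88 to 1.54, exact sign-flip p = 0.25). At 24h FOSL2 changed less than JUNB in each culture, with differences from -1.16 to -1.06 in T>C reads (exact sign-flip p = 0.25). In total reads the differences of this pair spread more widely, from -1.27 to -0.61 (exact sign-flip p = 0.25).

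**Figure D3:**
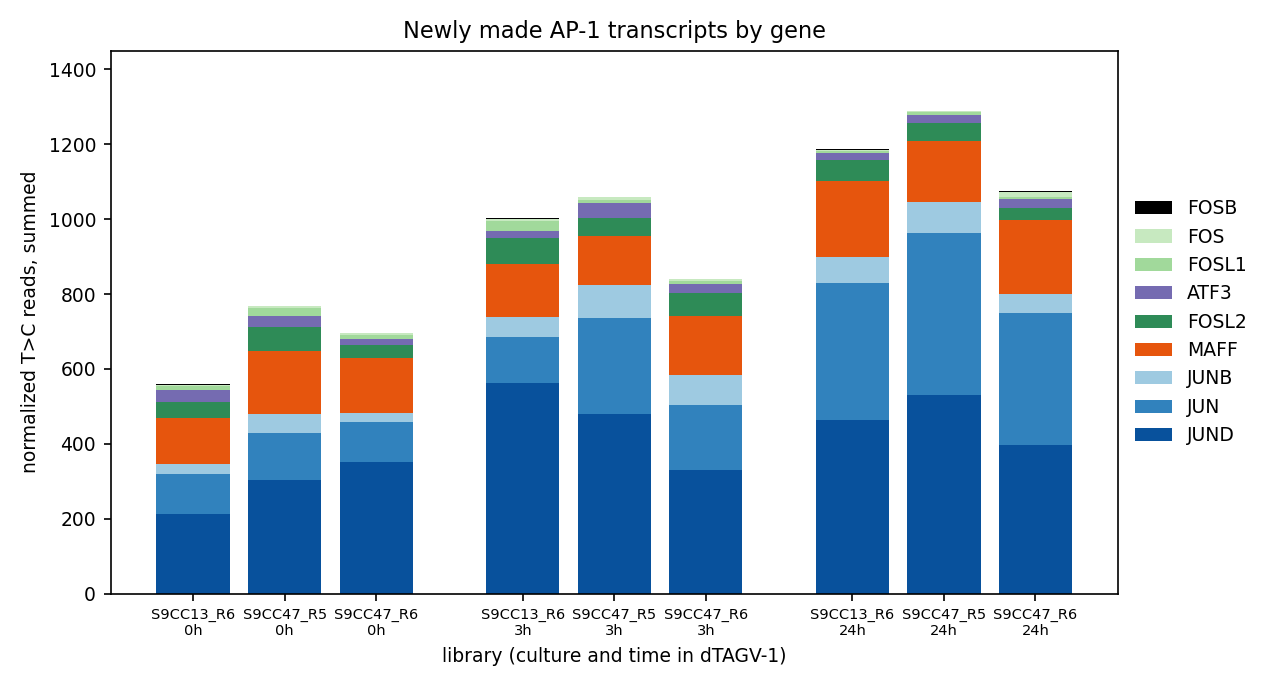
Normalized T>C reads of the 9 AP-1 genes (vertical axis, from 0), stacked by gene for each of the 9 libraries. The stacks reach 559.5 to 769 at 0h, 841 to 1058 at 3h and 1075 to 1289 at 24h, and the JUN segment grows from 0h to 24h in each culture.

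JUN made up more of the newly made AP-1 RNA at 24h. Summed over the 9 genes, normalized T>C reads averaged 675 ± 106 at 0h, 968 ± 113 at 3h and 1184 ± 107 at 24h, and the groups did not overlap. Of these AP-1 reads JUN gave 17.0% ± 1.82 at 0h, 19.2% ± 6.23 at 3h and 32.4% ± 1.49 at 24h. JUND gave 42.6% ± 6.75, 46.8% ± 8.62 and 39.0% ± 2.11, so that its part overlapped between all times. Among the 3 JUN genes alone, JUN went from 26.5% ± 4.29 at 0h to 42.1% ± 1.91 at 24h, with every 24h library above every 0h library. The 4 FOS genes together gave 9.95% ± 2.25 at 0h and 5.05% ± 0.584 at 24h. These are shares of a sum, which move when any gene of it moves.

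The T>C share, the percentage of the reads of a gene that carried a conversion, was on average lower at 0h for JUND than for 7 of the 8 other members. It was 29.5% ± 5.33 for JUND, and 53.7% of the 12037 genes tested had a lower share. MAFF had the highest share, 72.6% ± 3.28, with 98.7% of genes below it. JUNB had 62.7% ± 15.9, FOSL2 59.1% ± 12.6, JUN 57.9% ± 4.34, FOSL1 56.6% ± 14.3, FOS 55% ± 18.0 and ATF3 48.7% ± 15.8. Of the genes tested, 95.6% had a lower share than JUNB, 92.9% than JUN and 83.7% than ATF3. JUND was below each of these 7 genes in all 3 cultures at 0h, although its range overlapped that of ATF3. The median gene had 27.8%. FOSB had 8.33% ± 14.4, the mean of 25% in S9CC13_R6 (12 total reads), 0% in S9CC47_R5 (1 read) and 0% in S9CC47_R6 (5 reads).

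A T>C share grows with the fraction of a transcript that is new, and also with the number of T in the part that is read. Over the last 250 bases of the canonical GENCODE transcript, T made up 34% for JUN, 33.6% for JUND, 27.6% for MAFF, the lowest of the 9 genes, and 44% for FOS, the highest. The regions in which the reads were counted are not given in the sources used here, so these windows only stand for them, and the part of T content in the shares was not tested. The pentamer ATTTA, part of the AU-rich elements that mark short-lived transcripts, occurred 9 times in the 3′ UTR of FOSL2, 5 times in that of FOS, 4 times in that of MAFF, 3 times each in those of JUN, FOSB and ATF3, 2 times in that of JUNB, and 1 time each in those of FOSL1 and JUND. The 3′ UTRs ranged from 500 bases in JUNB to 4869 bases in FOSL2.

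**Figure D4:**
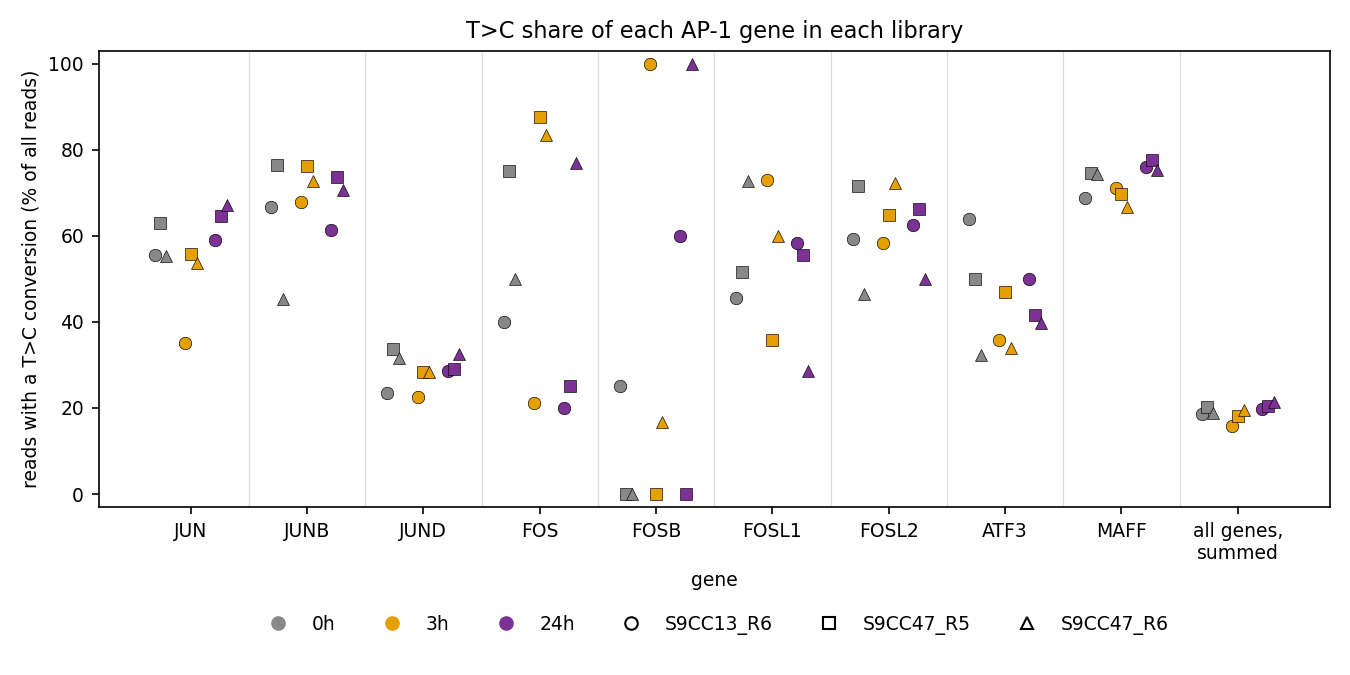
T>C share (vertical axis, percentage of a gene's reads with a T>C conversion) of the 9 AP-1 genes and of all genes summed, for each library, with colours for time and symbols for culture. JUND sits at 22.5% to 33.6% and all genes summed at 15.9% to 21.3%, MAFF sits at 66.7% to 77.7%, and FOS and FOSB scatter widely on few reads.

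The T>C shares of the later times were then set against those of 0h, where 3 cultures a group are too few for a test to pass. Of 18 differences (9 genes at 3h and 24h against 0h), 4 had the same sign in all 3 cultures: JUN and JUND at 3h (lower), and JUN and MAFF at 24h (higher). Each of the 4 had an exact two-sided sign-flip p of 0.25, the smallest that 3 cultures allow. Equal signs in all 3 cultures arise by chance with that probability, and 4 of 18 is close to it. JUN had 55.4%, 62.9% and 55.3% at 0h, 35.1%, 55.7% and 53.6% at 3h, and 59.1%, 64.5% and 67.2% at 24h, cultures ordered as before. The lowest of these, 35.1% in S9CC13_R6 at 3h (Wilson 95% interval 29.6% to 41%, which covers counting error only), belongs to the library with the lowest share over all genes. The mean difference for JUN was -9.75 points at 3h (SD 9.57, n = 3, exact two-sided permutation p = 0.3) and 5.77 points at 24h (SD 5.43, n = 3, exact permutation p = 0.2). MAFF differed by 3.76 points at 24h (SD 3.16, n = 3, exact permutation p = 0.1), the smallest p that 3 against 3 samples allow, among 18 such tests. The other 17 permutation p-values were above that. Divided by the T>C share of its library, the share of MAFF at 24h differed from that at 0h by a ratio of -0.0664 on average, so that the direction turned with this scaling. The same scaling gave mean differences of -0.346 for JUN at 3h, 0.0811 for JUN at 24h and -0.063 for JUND at 3h. In S9CC13_R6 the scaled shares of JUN at 24h and of JUND at 3h went the other way. Of the 4 differences, only that of JUN at 3h thus kept its sign in every culture.

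A fit of T>C reads against unconverted reads, which sets each gene against the others of its own library, called none of the 8 members at 3h or 24h. Of all genes tested it called 0.324% at 3h and 0.0166% at 24h. In DESeq2 0 of the 8 had an unadjusted p under 0.05 at either time, and edgeR called 0. For JUN at 24h the odds of a T>C read changed by 1.19-fold (95% interval 0.83 to 1.71), so T>C and unconverted reads rose by amounts that this fit did not separate. For JUND at 24h the value was 0.955-fold (95% interval 0.776 to 1.17).

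Genes that pair with AP-1 proteins, act above them or respond beside them were counted in the same way. Of 20 other bZIP genes that can pair with AP-1 proteins, 17 were tested in T>C reads. At 3h, where 1.79% of all genes were called, DESeq2 called none of them (1 had an unadjusted p under 0.05, and edgeR called none). At 24h 1 rose and 2 fell, where 4.98% of all genes were called. NFE2L2, the regulator of the response to oxidants, rose by 0.37 on the log2 scale at 24h (SE 0.13, adjusted p = 0.0943). BACH2, a bZIP repressor, fell by 0.89 (SE 0.20, adjusted p = 0.000511) and ATF4, the main factor of the integrated stress response, fell by 0.33 (SE 0.11, adjusted p = 0.0798). The list median at 24h was 0.14, beside 0.0015 over all genes.

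SRF and its ternary complex factors, which drive FOS through the CArG box, gave no call in DESeq2 among 6 tested at either time. In T>C reads 1 of them had an unadjusted p under 0.05 at 3h and 1 at 24h, and edgeR called none at 3h and 1 at 24h. DESeq2 called 1.79% of all genes at 3h and 4.98% at 24h in T>C reads. With 6 tested, no call is close to those shares.

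Of 28 MAP kinases and genes of their feedback, all 28 were tested in T>C reads, and 1 rose and 2 fell at 3h (1.79% of all genes called), while 5 rose and 1 fell at 24h (4.98% of all genes called). DUSP4, a phosphatase that switches off MAP kinases, rose by 0.57 at 3h (SE 0.10, adjusted p = 1.27e-05) and by 0.72 at 24h (SE 0.11, adjusted p = 8.56e-09). DUSP6, a phosphatase of ERK, fell by 0.32 at 3h (SE 0.09, adjusted p = 0.0227) and rose by 0.59 at 24h (SE 0.09, adjusted p = 1.25e-08). SPRY4, an inhibitor of growth factor signalling, fell by 0.53 at 3h (SE 0.14, adjusted p = 0.0151). Its relatives SPRED1 and SPRY1 rose at 24h by 0.50 (SE 0.11, adjusted p = 0.000602) and 0.57 (SE 0.16, adjusted p = 0.011).

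Of 25 other immediate-early genes, 18 were tested in T>C reads, of which 1 fell at 3h (1.79% of all genes called), and 3 rose and 1 fell at 24h (4.98% of all genes called). IER3, a survival gene of this class, fell at both times, by 0.90 at 3h (SE 0.11, adjusted p = 1.1e-13) and by 0.88 at 24h (SE 0.11, adjusted p = 2.09e-12). EGR1, a zinc finger factor induced beside FOS by growth factors, rose by 1.20 at 24h (SE 0.29, adjusted p = 0.00183). KLF10 (0.86, SE 0.28, adjusted p = 0.0598) and IER2 (0.28, SE 0.08, adjusted p = 0.0148) also rose at 24h. The list median was 0.10 on the log2 scale at 3h and 0.20 at 24h, beside -0.011 and 0.0015 over all genes.

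Genes known elsewhere as AP-1 targets were mostly too low to test, with 9 of 22 tested in T>C reads. DESeq2 called none at 3h (2 had an unadjusted p under 0.05, and edgeR called none) and none at 24h (3 had an unadjusted p under 0.05, and edgeR called 1). With 9 tested, no call is close to the shares over all genes, 1.79% at 3h and 4.98% at 24h. The list medians were 0.28 and 0.41, beside -0.011 and 0.0015 over all genes. In total reads 1 of 8 rose at 24h, where 15% of all genes were called and 7.11% called higher.

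All 15 genes of the ATF4 and stress list were tested in T>C reads. At 3h 1 rose (1.79% of all genes called), and at 24h 1 rose and 1 fell (4.98% of all genes called). HERPUD1, a gene of the unfolded protein response, rose by 0.59 at 3h (SE 0.18, adjusted p = 0.0699). HSPA1A, an inducible heat shock protein, rose by 1.57 at 24h (SE 0.40, adjusted p = 0.00413), and ATF4, also in the bZIP list, fell.

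Genes whose T>C reads ran most like those of 3 members over the 9 samples were found by Pearson correlation of log2(normalized T>C reads + 1), among genes whose normalized T>C reads averaged 50 or more. The 9 samples share 3 cultures and 3 times, and the values are descriptions. For JUN the 3 most alike of 8675 genes were PRRX2 (r = 0.991), PTGS2 (r = 0.973) and COL13A1 (r = 0.955). For ATF3, with a mean of 25 normalized T>C reads, they were REL (r = 0.883), TEX10 (r = 0.878) and DBNDD2 (r = 0.865). For FOS, with a mean of 5.32, they were UBXN2B (r = 0.921), GPC2 (r = 0.895) and CMTM3 (r = 0.862), and 1 library, S9CC47_R6 at 24h, held 20 T>C reads of FOS against 1 to 7 in the others.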

How the data were processed

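The data deposited by the authors were raw counts per gene in 2 tables, 1 of all reads and 1 of reads with a T>C conversion, and the 9 value columns of each were used. Following the authors' methods, read 1 was trimmed, mapped and counted with slamdunk on hg38. The counts carry no normalization or stated molecular identifiers. Normalized reads are these counts divided by DESeq2 size factors computed within each table.

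Each table was fitted as raw counts over all 9 samples with DESeq2 (version 1.42.0, R 4.3.3). The model held batch, 1 surrogate variable (sva 3.50.0) and time. Protein-coding genes (GENCODE 44) at 1 CPM or more in 3 or more samples were tested, without independent filtering. The T>C odds fit used T>C and unconverted counts of each library, with library as a term. edgeR (4.0.16) with TMM was an alternative. Scripts were tested on simulated data. Samples of 1 culture share clone and batch by their titles. They were taken as pairs in the changes within cultures, the sign-flip tests and the replicate block. The main DESeq2 fits held no term for culture, so their p-values are not paired. Correlations of the deviations of such samples ran from 0.0169 to 0.286 in T>C reads and from -0.0566 to 0.606 in total reads. The DESeq2 p-values rest on the spread left between libraries once batch and the surrogate variable were in the model. The libraries came from 3 cultures of 2 clones and 2 batches. SE and intervals in the text are from the DESeq2 fit (95%, normal approximation).

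The members and gene lists were chosen with earlier results of these data known. All 9 members are named, and genes of other lists where called in T>C reads (at most 4 per list and time, by adjusted p).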

Additional observations from a re-analysis of the deposited data

Results flagged for a closer look

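The change of JUN differed between the times of depletion by a test of the difference itself. In DESeq2, T>C reads at 24h were above those at 3h by 0.96 on the log2 scale (SE 0.20, adjusted p = 0.000378) and total reads by 0.85 (SE 0.15, adjusted p = 2.45e-06), higher at 24h in 3 of 3 cultures in each. Without S9CC13_R6 neither difference passed the test (T>C reads 0.96, adjusted p = 1, and total reads 0.90, adjusted p = 0.313). That refit left few degrees of freedom. Its calls over all genes fell from 137 to 20 in T>C reads and from 631 to 93 in total reads. The lost calls do not by themselves show that the difference rests on that culture.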

How the results depend on the processing

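The number of members called kept within 1.5 times its value under edgeR with TMM, TMM in DESeq2, no surrogate variable, no filter and, in T>C reads, the size factors of the total table. Leaving out 1 culture gave 0 to 1 members in T>C reads at 3h against 2, 1 to 2 at 24h against 3, and 0 to 1 between 3h and 24h against 1. In total reads the ranges were 2 to 2, 2 to 3 and 1 to 1, where between 3h and 24h without S9CC13_R6 the member called was JUND (0.68, adjusted p = 0.0595) and JUN was lost (0.90, adjusted p = 0.313). The fit without S9CC47_R6 had no surrogate variable, because none could be fitted. The number of T>C share differences with the same sign in all cultures was 4 of 18, and 7 to 10 with 1 culture left out, where fewer cultures have to share a sign. With the culture as a replicate block, the members called in T>C reads were 2, 3 and 1, as in the fit without it, and in total reads 2, 3 and 1, so that the pairing changed no call of a member. Over all genes the block moved the calls between 3h and 24h from 137 to 530 in T>C reads and from 631 to 1544 in total reads, and those at 3h in total reads from 221 to 141. edgeR called 968 genes against 599 in T>C reads at 24h and 267 against 137 between 3h and 24h. Without the surrogate variable the calls between 3h and 24h were 373 against 137 in T>C reads, and those at 3h in total reads 118 against 221. With 1 culture left out, calls over all genes were 59 to 91 (3h), 54 to 251 (24h) and 20 to 162 (between them) in T>C reads, and 64 to 154, 154 to 719 and 93 to 840 in total reads. Those refits had fewer samples and few degrees of freedom. Of 464 other values of the members' log2 fold changes, 403 kept direction and side of the threshold, 16 lost and 4 gained a call, and 41, none called, changed sign. The cause was not tested. Depth limits FOS and FOSB, with at most 26 and 12 total reads in a library.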
